A study of Homo sapiens with 12 samples.

Results

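Cell number 1 is the cell of this HCT116 data set whose libraries are rich in replication-dependent histone mRNA. It is represented by 2 of the 12 libraries of the series, 1 DASHed and 1 untreated. It was chosen by its histone values in these same libraries, so every value below that sets it against the other cells is a description and carries no test. Its counterparts are the 6 libraries of cells 2 to 4, which are 3 DASHed and 3 untreated libraries. All 12 libraries hold total RNA of HCT116, a human colon carcinoma cell line, and came from MATQ-seq, a protocol that amplifies RNA of few cells and also captures RNA without a poly(A) tail. The DASHed group had ribosomal RNA (rRNA) removed with scDASH, in which Cas9 cuts sequence derived from rRNA, and the untreated group did not. Single cells, sorted by FACS, gave 4 libraries of each group, and mini-bulk input gave 2 libraries of each group, which serve here as values beside the cells. The labels state no cell-cycle phase, synchronisation or separate culture for any library.

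Replication-dependent histones are the H1, H2A, H2B, H3 and H4 proteins that package newly copied DNA. Their genes lie in clusters, are driven by NPAT under cyclin E-CDK2, and give mRNAs that end in a stem-loop instead of a poly(A) tail. The stem-loop binding protein SLBP processes and protects these mRNAs, which accumulate while DNA is being copied and are degraded when replication ends. Genes such as MCM5, PCNA and CCNE2 are known to be induced earlier, around the entry into S phase, and genes of mitosis later. A cell's position in the cycle is commonly read from these groups together.

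The count of a gene was divided by the library's counts outside rRNA and multiplied by 1000000. This level, in counts per 1000000 (CPM), is a share of a library, so more RNA of a gene and less RNA of other genes cannot be told apart. Levels of different genes were not corrected for length and are therefore compared between cells only. A ratio divides cell 1 by the mean of cells 2 to 4 of the same treatment group. A gene is called higher, or lower, in cell 1 where it lay outside all 3 other cells and differed at least 2-fold from their mean in both groups. Genes with at least 20 counts in the 4 cells of each group, 9521 in all, could be called.

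DASHed cells had 714573 to 1070836 counts outside rRNA, with cell 1 at 816440. Untreated cells had 1077290 to 1505387, with cell 1 the lowest. The share of rRNA and rRNA-like transcripts was highest in cell 1 of both groups, at 38.4% against 29.9 to 35.6% and at 81.3% against 72.9 to 78.9%. Its part in the results was not tested. Scaled to all counts with rRNA included, the histone ratios given below were 11.8 and 9.85. After all cells were thinned to the same number of counts, 11756 genes were detected in DASHed cell 1 against 9881 to 12179 in the other DASHed cells. For the untreated cells the values were 14236 against 12098 to 14734. Deviations from the group mean were shared by DASHed and untreated libraries with the same number. Across 8681 genes the correlations were 0.92 to 0.93 for the same number and −0.38 to −0.23 for different numbers. Deviations from a group mean cancel out within each gene, which by itself makes the values for different numbers negative on average. Their sign and size therefore do not show that different cells oppose each other. The labels do not say whether libraries of the same number came from the same cell, so the 2 libraries of number 1 are not counted as independent cells.

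Before the values, the promoters of 1 well expressed member of each family are shown, because the results below turn on these genes being high together. They are RefSeq sequences (GRCh38.p14) from 250 bases before to 50 bases after the start, written 5′ to 3′ on the gene's strand. HIST1H1E (RefSeq H1-4) lies at chr6:26156079-26156378 (+), HIST1H2AJ (H2AC14) at chr6:27814728-27815027 (−), HIST2H2BF (H2BC18) at chr1:149812321-149812620 (−), HIST1H3B (H3C2) at chr6:26032050-26032349 (−) and HIST1H4E (H4C5) at chr6:26204360-26204659 (+). Capitals mark matches, on either strand, to 4 motifs: CCAAT (the CCAAT box), TATAAA (the TATA box), ATTTGCAT (the octamer, bound by OCT1) and TTTNGCGC (an E2F-type site).
HIST1H1E: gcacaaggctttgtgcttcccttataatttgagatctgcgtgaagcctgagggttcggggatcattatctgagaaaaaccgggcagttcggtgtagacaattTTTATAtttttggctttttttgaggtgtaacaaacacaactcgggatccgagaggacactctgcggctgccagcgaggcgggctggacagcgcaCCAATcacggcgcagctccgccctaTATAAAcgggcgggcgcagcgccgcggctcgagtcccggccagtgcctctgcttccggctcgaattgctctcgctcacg
HIST1H2AJ: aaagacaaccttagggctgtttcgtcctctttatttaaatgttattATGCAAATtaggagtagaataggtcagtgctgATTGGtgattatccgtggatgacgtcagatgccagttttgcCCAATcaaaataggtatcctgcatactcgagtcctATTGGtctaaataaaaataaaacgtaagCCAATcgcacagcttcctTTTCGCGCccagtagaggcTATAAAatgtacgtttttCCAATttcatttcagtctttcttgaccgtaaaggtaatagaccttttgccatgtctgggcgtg
HIST2H2BF: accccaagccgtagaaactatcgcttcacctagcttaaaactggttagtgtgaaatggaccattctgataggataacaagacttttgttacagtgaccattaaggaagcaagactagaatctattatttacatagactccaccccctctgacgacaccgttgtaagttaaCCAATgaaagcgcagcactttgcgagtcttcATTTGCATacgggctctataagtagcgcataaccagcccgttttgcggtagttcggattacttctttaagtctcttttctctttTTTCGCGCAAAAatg
HIST1H3B: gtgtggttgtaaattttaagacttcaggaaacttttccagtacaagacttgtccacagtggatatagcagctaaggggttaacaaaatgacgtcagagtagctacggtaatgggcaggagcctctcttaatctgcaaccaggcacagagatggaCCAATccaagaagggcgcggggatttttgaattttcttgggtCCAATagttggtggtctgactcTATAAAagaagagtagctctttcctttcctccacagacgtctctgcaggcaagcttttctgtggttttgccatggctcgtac
HIST1H4E: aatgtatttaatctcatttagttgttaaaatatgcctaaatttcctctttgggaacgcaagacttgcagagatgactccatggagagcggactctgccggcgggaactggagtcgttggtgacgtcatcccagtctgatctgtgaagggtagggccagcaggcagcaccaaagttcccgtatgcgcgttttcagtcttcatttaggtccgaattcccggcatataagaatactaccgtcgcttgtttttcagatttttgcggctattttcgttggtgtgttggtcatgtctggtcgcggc

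Of the 70 histone genes, 65 matched an entry of the promoter table. The CCAAT box occurred on either strand in 84.6% of them and in 35.7% of all 27305 promoters of the same length. It was in every matched H1, H2A, H2B and H3 promoter but in only 3 of 13 H4 promoters (23.1%), below the share of all promoters. The TATA box occurred in 66.2% of histone promoters and in 11.95% of all promoters. The octamer was found in 11 of 16 H2A and 14 of 18 H2B promoters, in 1 of 12 H3 promoters and in no H1 or H4 promoter, against 1.80% of all promoters. The E2F-type motif occurred in 18.5% of histone promoters and in 1.83% of all. These were 5 of 16 H2A, 6 of 18 H2B and 1 of 12 H3 promoters, and no H1 or H4 promoter. None of the 4 motifs contains another, and the windows of H2A and H2B genes that share a start region overlap. HIST1H4E holds none of the 4 in this window. A match describes the letters of the window and is not a measured binding site.

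Replication-dependent histone mRNA took 2.29% of the counts outside rRNA in DASHed cell 1 and 1.18% in untreated cell 1. The summed level of the 70 genes was 22877 CPM in DASHed cell 1, against 1757, 1247 and 2282 in DASHed cells 2, 3 and 4. In the untreated group it was 11841 in cell 1, against 935, 752 and 1206. No other cell came near cell 1 in either group. The ratio was 12.98 in DASHed cells, where the others averaged 1762 ± 518 (SD, n = 3), and 12.28 in untreated cells, where they averaged 964 ± 228 (SD, n = 3). The 95% intervals of the ratios to the pooled counts of the other cells, 12.65 to 13.5 and 11.9 to 12.8, cover counting error only. Reads without molecular identifiers are not independent molecules, so these intervals are too narrow even for that.

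The mini-bulk libraries had summed histone levels of 7295 and 6795 (DASHed) and 2868 and 2792 (untreated), between cell 1 and the other cells. In mini-bulk, fewer cells of a kind and less of the RNA per cell cannot be told apart. The mean of the 4 DASHed cells was 7041, close to the DASHed mini-bulk values. The mean of the 4 untreated cells was 3684, above both untreated mini-bulk libraries.

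**Figure D1:**
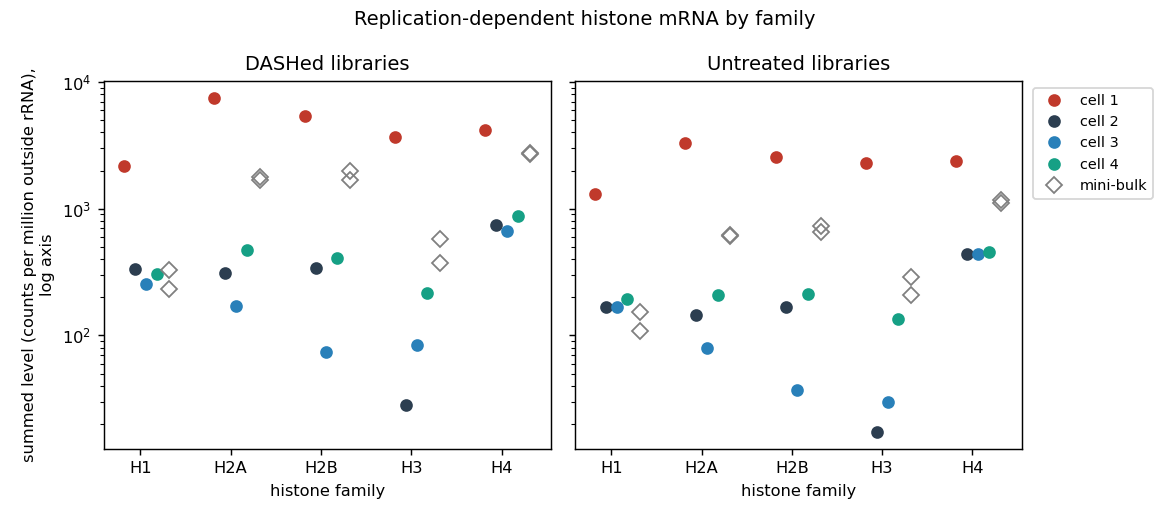
Summed level of each histone family (CPM outside rRNA, log axis) in every library, with single cells as filled points and mini-bulk libraries as open diamonds. Cell 1 lies above the other 3 cells and above both mini-bulk libraries in all 5 families of both groups.

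All 5 histone families were higher in cell 1, but not to the same extent. The linker histone H1, which binds DNA between nucleosomes, had ratios of 7.22 (DASHed) and 7.41 (untreated). H2A and H2B, which pair in the nucleosome core, had ratios of 23.5 and 23.0, and of 19.6 and 18.4. H3 had the highest ratios, 33.6 and 37.6, and its partner H4 the lowest, 5.53 and 5.31. Most of the H3 sum of cell 1 came from 1 gene, HIST1H3J, described below. It made 2325 of 3652 CPM in DASHed cell 1 and 1699 of 2296 CPM in untreated cell 1. The place of H3 may depend on this gene and was not recomputed without it. The order of the families was the same in both groups.

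The families' shares of the histone sum differed accordingly. H4 took 18.4% of the histone level in DASHed cell 1 and 19.9% in untreated cell 1, against 37.8 to 58.5% in the other 6 cell libraries. H2A took 32.8% and 28.03% in cell 1, against 10.5 to 20.8% in the others. H3 took 15.96% and 19.4% in cell 1, against 1.59 to 11.3% in the others. Cell 1 lay outside the range of the other cells in the shares of all 5 families in both groups, below it for H1 and H4 and above it for H2A, H2B and H3. The H3 share of cell 1 came mostly from HIST1H3J, and the shares were not recomputed without that gene. They are therefore not read as a shift of the whole H3 family.

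Of the 70 members, 22 had no count in any of the 8 single-cell libraries. Cell 1 had counts for 41 members in both groups, 9 of which had none in the other 6 libraries, and 5 members had counts in another cell but none in cell 1. The highest value of the group was that of cell 1 in both groups for 40 of the 70. Enough counts to be called were present for 40 members, and 37 of these were called higher in cell 1, beside 16.8% of all 9521 genes. This filter counts cell 1 itself, and the choice of cell 1 fixed the direction, so nothing is read from that number. Where the 20 counts had to come from the other 3 cells alone, a filter added after the data were seen, 24 members remained and 21 were called, beside 10.7% of 8573 genes. The choice of cell 1 fixed the direction of this count too, so nothing is read from it either. The same rule applied to cells 2, 3 and 4 in turn called 1, 0 and 2 histone genes higher, beside 15.1%, 16% and 19.1% of all genes. A gene can be called higher for 1 cell only, so the 37 of 40 called for cell 1 kept these counts low. Nothing is read from them.

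The median log2 ratio of the 40 members was 4.61 in DASHed and 4.46 in untreated cells, against −0.55 and −0.38 over all 9521 genes. Histone transcripts are short and GC-rich. Among 1841 other genes in the middle GC range of the histones (51.1 to 61.8%) and no longer than 930 bases, 17.0% were called higher, and their median log2 ratios were −0.49 and −0.42. Near-identical copies limit the single members. In 36 of the 70, at least 10% of the 31-base words of the transcripts also occur in another gene (GENCODE v29), and counts can be split between such genes arbitrarily. Without these 36 members the summed ratios were 9.03 and 8.08. By the same measure H2AFY, PKMYT1, MCM2, CDK4, PRC1, PLK1, FOXM1, CHAF1B, NASP, ATR, GINS3, NCAPD2, CCNE2, KRT8, KRT18, LYZ, HBA1, VWF, FAU, RPPH1 and RF00100, named below, are uncertain.

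**Figure D2:**
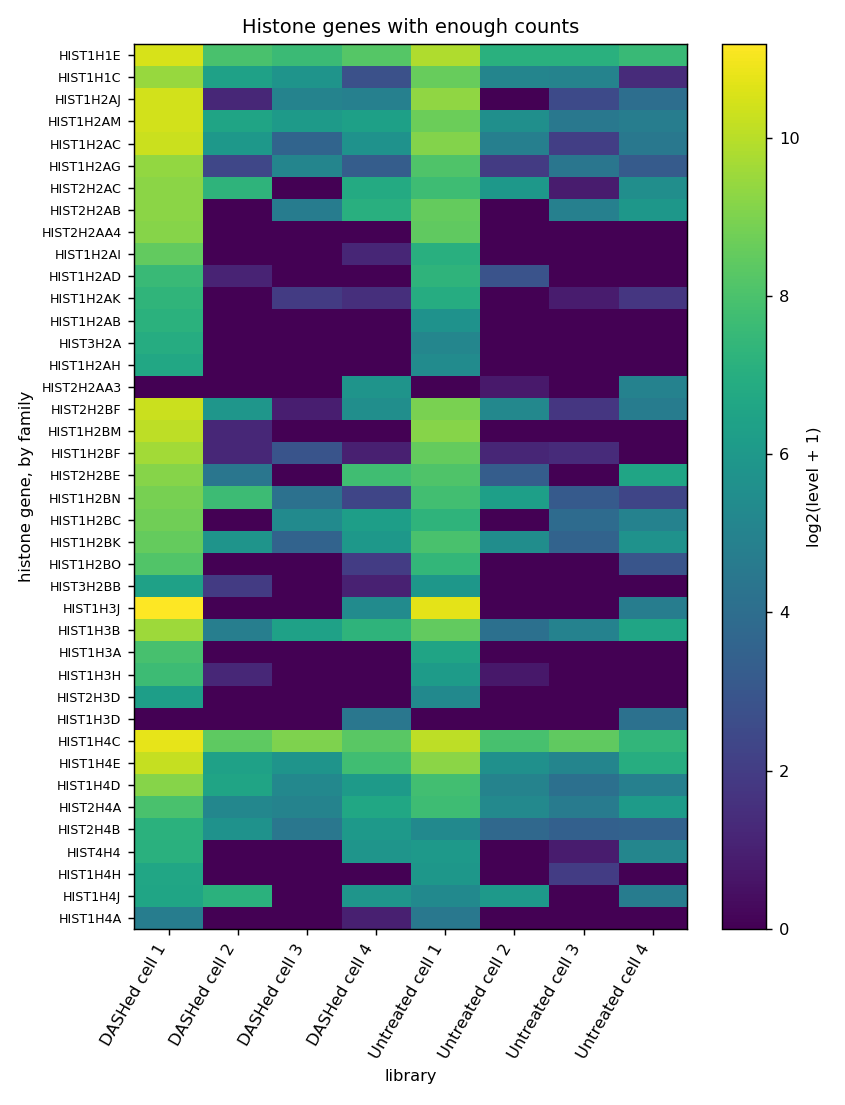
Levels of the 40 histone genes with enough counts in the 8 single-cell libraries, as log2(level + 1), grouped by family and ordered within a family by DASHed cell 1. The columns of cell 1 are bright in both groups, and many genes are at or near 0 in cells 2 to 4.

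HIST1H1E encodes a linker histone. Its level was 1458 in DASHed cell 1, against 250.5, 199 and 302, and 913 in untreated cell 1, against 135.5, 136 and 191. Cell 1 stood clear of the other cells, with ratios of 5.82 and 5.93. HIST1H1C, another linker histone, stood at 694.5 against 82.6, 55.1 and 5.92 (DASHed) and at 388 against 32.6, 30.8 and 1.62 (untreated). The other cells also differed among themselves, with cell 4 lowest in both groups.

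Among the H2A genes, HIST1H2AJ reached 1383 in DASHed cell 1 against 1.40, 30.8 and 28.3, and 633 in untreated cell 1 against 0, 4.73 and 15.4. HIST1H2AM reached 1352 against 91.0, 67.2 and 79.8, and 402 against 45.8, 21.3 and 25.8. Both share more than 80% of their words with other histone genes and are uncertain as single genes. HIST1H2AC, which shares 1.80%, behaved alike: 1262 against 61.6, 11.2 and 51.3 in DASHed cells, and 549 against 27.2, 3.15 and 21.1 in untreated cells.

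HIST2H2BF, an H2B gene, stood at 1243 in DASHed cell 1 against 57.3, 0.934 and 44.8, and at 485 in untreated cell 1 against 36.4, 2.40 and 25.0. HIST1H2BM was at or near 0 in the other cells. It stood at 1070 against 1.40, 0 and 0 in DASHed cells, and at 569 against 0 in all 3 other untreated cells. Set against a floor of 3 counts over those 3 cells, the untreated level of HIST1H2BM was at least 759-fold higher in cell 1. All 4 mini-bulk libraries held HIST1H2BM, at 302.5 and 251 (DASHed) and 86.95 and 89.1 (untreated).

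HIST1H3J, an H3 gene, contributed the most histone counts to cell 1, 10.2% of the sum in DASHed and 14.3% in untreated cell 1. Its levels were 2325 against 0, 0 and 40.5 in DASHed cells, and 1699 against 0, 0 and 25.4 in untreated cells. Its annotated span (chr6:27890382-27893106, GRCh38) overlaps that of HIST1H2AM (chr6:27892757-27893149) on the same strand, so reads may have been shared between the pair. HIST1H3B, which shares 8.14% of its words, stood at 746 against 26.6, 84.1 and 152, and at 361 against 16.6, 29.96 and 93.4. In HIST1H3B the ratios were 8.52 and 7.74, well below those of HIST1H3J.

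HIST1H4C, described with the markers below, and HIST1H4E were the H4 genes with the highest mean level over the cells. HIST1H4E stood at 1161 against 82.6, 54.2 and 218 in DASHed cells, and at 609 against 48.5, 33.1 and 123.5 in untreated cells. In DASHed mini-bulk HIST1H4E was at 1239 and 1300, above DASHed cell 1, and in untreated mini-bulk it was at 508 and 581, below untreated cell 1. Of the 3 members with enough counts that were not called, HIST1H4J stood at 95.5 in DASHed cell 1 against 140, 0 and 55.2. HIST2H2AA3 and HIST1H3D were at 0 in both libraries of cell 1 and were highest in cell 4. All 31-base words of both occur in other genes, and the near-identical HIST2H2AA4 was at 566 and 352 in cell 1 and at 0 in the other 6 libraries. AL031777.3, a gene model at chr6:26195595-26199293 (−, GRCh38) whose span contains those of HIST1H3D and HIST1H2AD, stood at 991 in DASHed cell 1 against 25.4, 0.934 and 56.1, and at 198 in untreated cell 1 against 2.93, 0 and 13.8. It is not among the 70 members and was named after its values were seen.

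The histone genes lie in 6 blocks of the genome (GRCh38), and members of every block were called higher. The main cluster, chr6:25726132-26285638, holds 34 members, of which 14 of 15 with enough counts were called higher, and its summed ratios were 9.13 and 8.26. In chr6:27807444-27893843, 9 of 10 were called, with ratios of 29.97 and 37.0. Between these, chr6:27125897-27147515 had 3 of 3 called. On chromosome 1, 8 of 9 were called at chr1:149782689-149887916 and 2 of 2 at chr1:228424845-228460470, and HIST4H4 on chromosome 12 was called as well. Over all genes 16.8% were called higher. The block counts divide up the 37 of 40 given above, whose direction was fixed by the choice of cell 1, so nothing is read from them.

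In 11 places an H2A and an H2B gene are transcribed away from each other from starts 219 to 331 bases apart. Both genes were called higher in 7 of these pairs. In 2 pairs the H2A gene was called while its H2B partner had no count in cell 1 (HIST1H2BJ beside HIST1H2AG, and HIST1H2BL beside HIST1H2AI). In the other 2 pairs neither had enough counts. The calls in these pairs are part of the same histone calls, so nothing is read from their number either.

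The marker genes did not place cell 1 in a single phase. HIST1H4C, an H4 gene and the marker of the histone program, stood at 1744 in DASHed cell 1 against 340.1, 520.2 and 315, and at 1090 in untreated cell 1 against 244, 352 and 165. It was called higher, with ratios of 4.45 and 4.30. MCM5, a subunit of the MCM2-7 helicase that is loaded at origins, stood at 288 against 1153, 1787 and 319, and at 211 against 751, 1348 and 168. MCM5 was thus low in cells 1 and 4 and high in cells 2 and 3 of both groups.

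PCNA, the sliding clamp of the replication fork, stood at 61.2 against 23.8, 212 and 56.2, and at 100.3 against 45.8, 200.3 and 84.5. Cell 3 had the highest PCNA in both groups, and cell 1 was second. CCNE2, cyclin E2, was at 1.23, 1.40, 1.87 and 0 in DASHed cells 1 to 4 and at 0.928, 3.99, 9.75 and 0 in untreated cells, too few counts to be called. Thus 1 of the 4 markers, HIST1H4C, was high in cell 1. It is one of the histone genes by whose level cell 1 was chosen, so its direction was fixed. No phase name is given to cell 1 here.

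**Figure D3:**
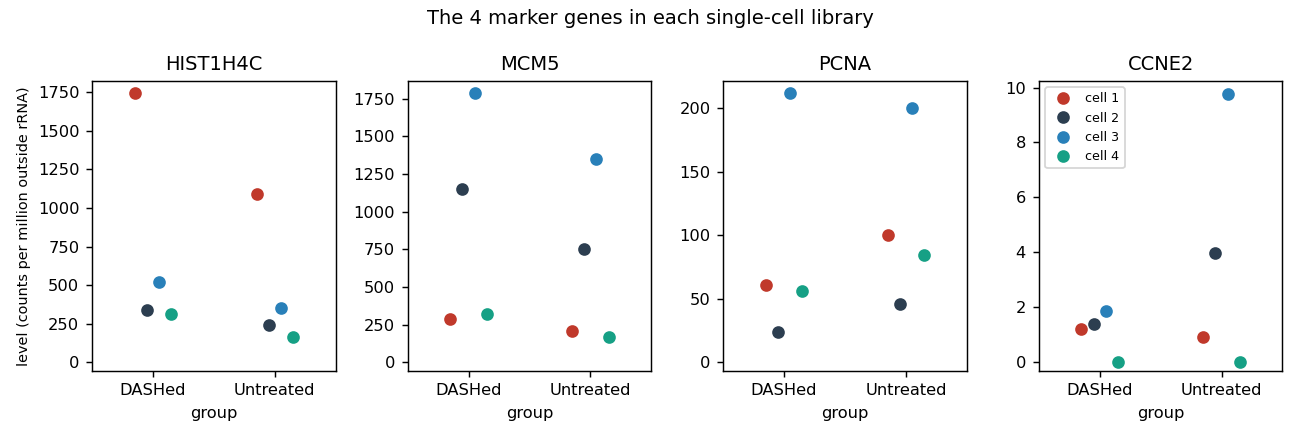
Level of HIST1H4C, MCM5, PCNA and CCNE2 (CPM outside rRNA) in each single-cell library, each panel with its own axis. Cell 1 is highest for HIST1H4C, while cell 3 is highest for MCM5, PCNA and CCNE2 in both groups.

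The S-phase list, 43 genes commonly used to score S phase, was not high in cell 1 as a whole. Its summed level was 2421 in DASHed cell 1 against 2866, 4447 and 2403, and 3197 in untreated cell 1 against 3008, 4393 and 3010. Cell 3 had the highest sum in both groups. Of 36 genes with enough counts, 3 were called higher and 5 lower in cell 1, and the median log2 ratios were −0.60 and −0.31 against −0.55 and −0.38 over all genes. Over all genes, 16.8% were called higher and 12% lower in cell 1, and the counts of this and the following lists are to be read beside these shares. MCM5 has the most counts in this list, and without it the ratios of 0.748 and 0.921 became 0.991 and 1.10.

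The 3 S-phase genes called higher were BRIP1, BLM and CHAF1B. BRIP1, a helicase of DNA repair, stood at 63.7 in DASHed cell 1 against 0, 4.67 and 0, and at 119 in untreated cell 1 against 6.92, 16.6 and 1.70. BLM, the Bloom syndrome helicase, had ratios of 5.91 and 3.25. The 5 called lower were MCM2, RRM1, RFC2, POLD3 and ATAD2, with ratios of 0.361 and 0.415 for MCM2 and 0.165 and 0.333 for ATAD2. POLD3, a subunit of DNA polymerase delta, was at 0 and 0.428 in cell 1 and at 4.67 to 113 in the other cells.

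Genes of replication did not move as 1 group. Origin licensing, in which ORC, CDC6 and CDT1 load the MCM2-7 helicase before S phase, had its lowest sum in cell 1 in both groups, at 2124 against 2720, 4115 and 2589, and at 1928 against 2221, 3425 and 2290. The rank rests on MCM5. Without it the sums were 1836 against 1567, 2327 and 2270, and 1717 against 1470, 2077 and 2122, so that cell 2 was lowest in both groups. Of 15 licensing genes 2 were called lower, a share near the 12% of all genes, and 1 higher. CDT1, the licensing factor that is degraded in S phase, stood at 21.0 against 91.7, 28.1 and 405, and at 18.4 against 67.5, 26.2 and 225. ORC1, the largest subunit of the origin recognition complex, was the gene called higher, at 165 against 8.40, 63.5 and 30.2, and at 173 against 6.81, 70.8 and 46.2.

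Origin firing, the step that turns licensed origins into forks, had ratios of 1.53 and 1.87, but cell 3 was higher than cell 1 in DASHed cells. Of 10 genes with enough counts 3 were called higher and 0 lower, beside 16.8% and 12% of all genes. TOPBP1, a scaffold of origin firing and of ATR signalling, stood at 57.6 against 0, 0.934 and 8.89, and at 212 against 0.664, 21.3 and 59.3. MCM10 had ratios of 2.67 and 5.05 and GINS3, a subunit of the replicative helicase, 17.0 and 3.17. Cell 2 was very low in this list, at 104 and 124 against 516 to 956 in the other cells, which raises the ratios of cell 1.

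Replication fork genes were not set apart as a list. Their summed ratios were 0.946 and 0.972, and of 24 genes 3 were called higher (RFC1, RFC3 and RFC5) and 3 lower (RFC2, TIMELESS and POLD3), close to or below the 16.8% and 12% of all genes. The 3 called higher and RFC2 are all subunits of the clamp loader that places PCNA on DNA. RFC3 stood at 44.1 against 1.40, 14.0 and 0, and at 84.5 against 3.99, 6.31 and 0. TIMELESS, which protects the fork, was at 0 in DASHed cell 1 against 37.8, 121 and 172, and at 5.57 in untreated cell 1 against 82.0, 77.3 and 126. Nucleotide supply was lowest in cell 1 in both groups, with ratios of 0.713 and 0.789, and RRM1, a subunit of ribonucleotide reductase, was called lower at 0.0803 and 0.394.

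Besides the histones, chromatin assembly, the deposition of new histones behind the fork, was the list whose sum was highest in cell 1 in both groups. It stood at 2823 in DASHed cell 1 against 1670, 2480 and 1962, and at 2086 in untreated cell 1 against 1192, 2053 and 1564. In the untreated group the lead over cell 3 was small, and cell 3 was above cell 1 under each of the 3 other scalings tried. Of 10 genes 3 were called higher and 1 lower, ATAD2. ASF1B, a chaperone of H3 and H4, stood at 230.3 against 23.8, 6.54 and 0, and at 132 against 17.9, 4.73 and 0.

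CHAF1A and CHAF1B, the large and middle subunits of the CAF-1 complex, were the others called higher. CHAF1A stood at 692 against 193, 40.3 and 262, and at 394.5 against 120, 23.96 and 132. CHAF1B stood at 361 against 30.8, 171 and 130 and at 307.5 against 41.8, 187 and 142. The chaperone NASP was lower in DASHed cell 1 than in the other DASHed cells, at 19.6 against 63.2, 41.1 and 100.4, but in the untreated group cell 3 was below cell 1.

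Histone variants are made outside S phase as well and mostly from polyadenylated mRNA. H1F0, H2AFX and H2AFY2 were called higher and H2AFY lower, of 10 genes. H1F0, the linker variant H1.0, stood at 791 against 162, 126 and 383, and at 445 against 90.3, 74.9 and 218. H2AFX, whose mRNA can be made with or without a tail, stood at 816 against 136, 365 and 319, and at 403 against 69.1, 246 and 144. H2AFY, which encodes macroH2A1, stood at 11.02 against 159, 173 and 161, and at 12.1 against 232, 122 and 275.

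The machinery that makes histone mRNA was not higher in cell 1 as a list, with ratios of 0.891 and 0.743 and 1 of 9 genes called. That gene was CSTF2, a cleavage factor shared with polyadenylated mRNA, at 69.8 against 0, 36.4 and 0, and at 65.0 against 0, 44.95 and 6.497. SLBP stood at 1.23 in DASHed cell 1 against 91.0, 25.2 and 72.0, and at 21.4 in untreated cell 1 against 141.5, 16.6 and 66.6. It was lowest in DASHed cell 1 and second lowest in untreated cell 1. NPAT, the coactivator of histone genes, was at 13.5 against 6.05 to 12.1 in DASHed cells and at 31.6 against 33.9 to 50.5 in untreated cells.

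**Figure D4:**
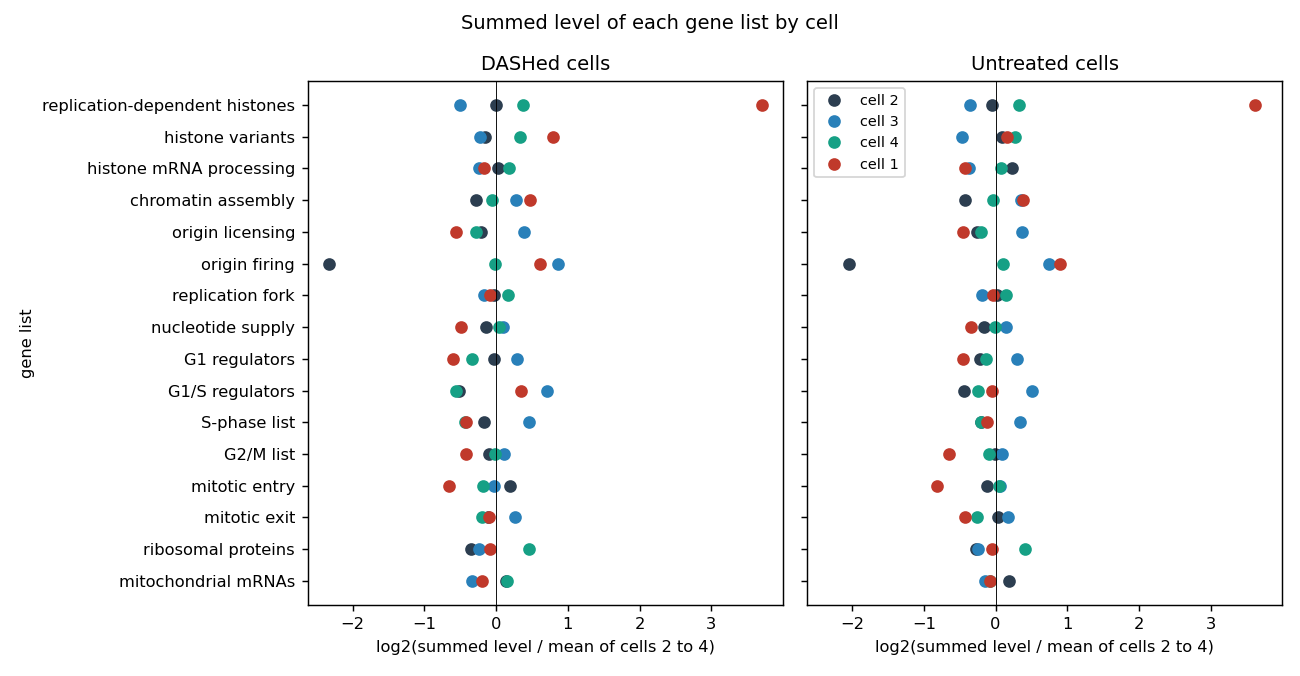
Summed level of 16 gene lists in each single cell, as log2 of its ratio to the mean of cells 2 to 4 of the same group. Cell 1 lies far to the right for the replication-dependent histones and to the left of the other cells for the origin licensing, nucleotide supply, G1 regulator, G2/M and mitotic entry lists of both groups.

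The regulators that open S phase gave mixed values. Of 12 G1/S regulators 2 were called higher and 2 lower in cell 1, with summed ratios of 1.27 and 0.963. CDC25A, the phosphatase that activates CDK2, stood at 84.5 against 33.6, 0 and 13.8, and at 96.5 against 8.64, 0 and 17.9. E2F2, an activating E2F factor, had ratios of 5.43 and 4.08. E2F7, a repressive E2F factor, was at 0 in both libraries of cell 1, against 22.4 to 43.9 and 47.3 to 75.5, at least 8.88-fold and 20.6-fold lower against the floor of 3 counts.

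G1 regulators were lowest in cell 1 in both groups, with ratios of 0.658 and 0.729. CDK4, CDK6 and E2F4 were called lower and CCND3 higher, of 6 genes. CDK6, a cyclin D kinase, stood at 96.7 against 162, 766 and 257.5, and at 106 against 176, 819 and 431. CCND3, cyclin D3, stood at 249.9 against 89.6, 69.1 and 14.8, and at 165 against 43.9, 39.4 and 5.69. CCND1, cyclin D1, was within the range of the other cells in both groups.

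The summed level of G2/M genes was lowest in cell 1, while few single genes were called. The G2/M list of 54 genes summed to 5424 in DASHed cell 1 against 6782, 7830 and 7208, and to 6157 in untreated cell 1 against 9587, 10240 and 8992. Cell 1 was the lowest cell in both groups and under all 4 scalings, with ratios of 0.746 and 0.641. Of 46 genes 4 were called lower and 1 higher, both smaller shares than the 12% and 16.8% of all genes, and the median log2 ratios were −0.97 and −1.12. For cells 2, 3 and 4 the same rule called 9, 7 and 8 higher, beside 15.1%, 16% and 19.1% of all genes. It called 12, 3 and 3 lower, beside 20.3%, 9% and 12.3% of all genes.

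TPX2, a spindle assembly factor, stood at 110 against 556, 339.9 and 388, and at 168 against 1162, 659 and 754. NCAPD2, a condensin subunit, had ratios of 0.266 and 0.319, and HMMR, a spindle protein, 0.104 and 0.072. The G2/M gene called higher was CCNB2, cyclin B2, at 135 against 0, 15.9 and 26.6, and at 92.8 against 1.33, 18.9 and 47.9.

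The mitotic entry list was likewise lowest in cell 1 in both groups, with ratios of 0.634 and 0.567. PLK1, the kinase that drives mitotic entry, stood at 62.5 against 522, 618 and 560.5, and at 72.4 against 400.3, 556 and 469. CCNA2, cyclin A2, stood at 53.9 against 108, 329.6 and 205, and at 61.3 against 135.5, 565 and 468. CDC25B had ratios of 0.151 and 0.227. FOXM1, the transcription factor of the G2/M program, was called lower too, at 351.5 against 651 to 798.5 and at 238 against 446 to 585.5. PKMYT1, a kinase that restrains CDK1, went the other way, at 676 against 116, 206 and 346, and at 491 against 126, 163 and 205.

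In the mitotic exit list BUB1B and PRC1 were called lower and FZR1 higher, of 13 genes, beside 12% and 16.8% of all genes. Its sum was lowest in cell 1 in the untreated group only, at 1907 against 2633, 2898 and 2150. In DASHed cells it was 2352 in cell 1 against 2331, 3028 and 2197. BUB1B, a spindle checkpoint kinase, stood at 3.67 against 89.6, 59.8 and 167, and at 15.8 against 194, 155 and 361. FZR1, which directs the anaphase-promoting complex in G1, stood at 589 against 53.2, 334 and 139, and at 365 against 36.5, 243 and 94.2.

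The S-phase checkpoint list had 1 gene called higher, TOPBP1, and 1 lower, ATR, of 13. ATR, the kinase that senses stalled forks, was at 0 and 0.932 in cell 1, and cell 2 was far above the rest at 91.0 and 209. Of 11 p53 targets AEN and BAX were called higher and TNFRSF10B lower. CDKN1A, which encodes the CDK inhibitor p21, was at 0 in cells 1 and 4 of both groups and at 96.3 to 145.5 in cells 2 and 3. Of 11 cohesion genes CHTF18 and WAPL were called higher, and of 16 stress-response genes FOSB and DUSP1, shares near or below the 16.8% of all genes. FOSB, an immediate early gene, stood at 638 against 180.5, 16.6 and 25.7, and at 382 against 110, 12.3 and 12.99.

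**Figure D5:**
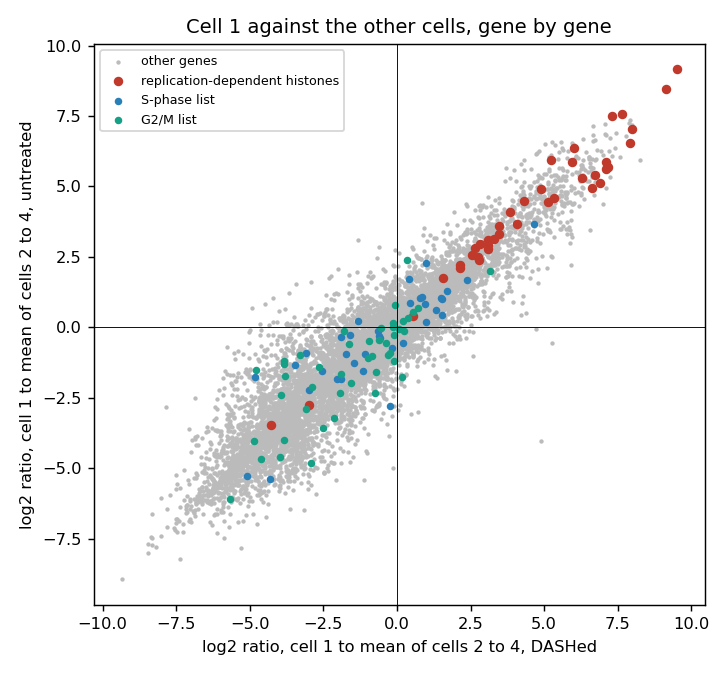
Log2 ratio of cell 1 to the mean of cells 2 to 4 for each of 9521 genes, DASHed cells on the horizontal and untreated cells on the vertical axis, with 1 CPM added. The histone genes lie mostly in the upper right among many other genes, and S-phase and G2/M genes spread along the diagonal with more G2/M genes in the lower left.

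The histones were part of a larger set of genes that set cell 1 apart, as each of the 4 cells had its own set. Cell 1 had 1595 genes called higher and 1145 called lower. Cells 2, 3 and 4 had 1433, 1525 and 1820 called higher and 1932, 857 and 1171 called lower. The number for cell 1 is within the range of the others in both directions. All-or-none detection, with a gene at 0 in the other cells, was common among those with the highest ratios.

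Of the 12 genes called higher with the largest ratios, 5 were histones: HIST1H2BM, HIST2H2AA4, HIST1H2BF, HIST1H3J and HIST1H2AI. The other 7 were CCDC17, RBPMS2, GGT1, PEX10, TYSND1, LRP4 and WDR24. CCDC17, a coiled-coil protein gene, was at 244 and 162 in cell 1 and at 0 in the other 6 cell libraries, at least 227-fold and 217-fold higher against the floor. It was at 0 in 3 of the 4 mini-bulk libraries and at 1.93 in the other. PEX10 and TYSND1, which both serve peroxisomes, stood at 282 and 226 and at 282 and 184 in cell 1, and at no more than 1.97 in any other cell. LRP4, a receptor of the LDL receptor family, was at 135 and 114 in cell 1 and at 0 in the other 6. GGT1, PEX10 and WDR24 share over 10% of their words with other genes and are uncertain.

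The 12 genes called lower with the largest ratios were SPARC, FANCG, SLC2A1, OGFOD3, R3HDM4, TOM1L2, CUEDC1, B4GALNT1, CNNM2, STEAP3, ABALON and HCN3. All but B4GALNT1 were at 0 in both libraries of cell 1. SPARC, a secreted matrix protein, was at 455, 1462 and 42.4 in DASHed cells 2 to 4 and at 399, 1057 and 17.9 in untreated ones, at least 178-fold and 177-fold lower in cell 1. FANCG, a subunit of the Fanconi anaemia core complex, was at 76.9 to 489.8 and 59.3 to 366 in the other cells. SLC2A1, the glucose transporter GLUT1, was at 35.0 to 635 and 35.9 to 354. None of these 12 genes belongs to a list used here. B4GALNT1, CNNM2, STEAP3, ABALON and HCN3 share over 10% of their words with other genes, and ABALON is transcribed antisense to a coding gene, so these values are uncertain.

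Markers of the cell line and of other cells were checked in the same libraries. KRT8, an epithelial keratin, stood at 1148 in DASHed cell 1 and 803 in untreated cell 1, within the range of the other cells, as did KRT18 and KRT19. CLDN7, a tight junction protein, was called higher, with ratios of 3.57 and 3.48. The 13 markers of blood, stromal, endothelial and liver cells summed to 11.45 and 14.0 in cell 1, against 0 to 28.02 and 4.30 to 25.6 in the others. CD3E, CD79A, CD14, LYZ, HBB, HBA1, COL3A1, VWF and ALB were at 0 in all 8 cells.

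Mitochondrial mRNAs and ribosomal protein genes were within the range of the other cells, with ratios of 0.876 and 0.952, and of 0.943 and 0.963. Other RNAs without a poly(A) tail, such as RMRP and RPPH1, were looked at in a list of 16 added after the data were seen. They summed to 27988 in DASHed cell 1 against 15925, 12303 and 29519, and to 11783 in untreated cell 1 against 7927, 5868 and 12215. Cell 4 was above cell 1 in both groups, and 0 of 5 genes with enough counts were called higher. The sum is mostly that of RF00100, a gene name of the 7SK family, at 26142 in DASHed and 10796 in untreated cell 1. Without RF00100 cell 1 was at 1846 against 1954, 1427 and 2404, and at 987 against 1241, 789 and 1172, above cell 3 and below cells 2 and 4 in both groups. RPPH1, the RNA of ribonuclease P, was lowest in cell 1 in both groups, at 686 against 978.5, 792 and 1266, and at 309.7 against 502, 389.9 and 562.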

How the data were processed

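The deposited table holds estimated counts per gene for 12 libraries, not scaled to depth. Per the submitters' processing notes, the authors made the estimated counts with kallisto 0.46.2, which shares reads among transcripts that could have produced them. The build, the annotation and the use of strand were not given in the sources used here. The table has 57134 genes, of which 57130 match names in GENCODE 29 (GRCh38) after 52 names that a spreadsheet had altered were restored.

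Levels are counts per 1000000 counts outside rRNA (CPM). The sums left out 536 rRNA genes and pseudogenes and 4 rRNA-like genes. Log2 ratios added 1 CPM. Genes needed at least 20 counts summed over the 4 cells of each group. Total counts were 1018874 to 1573651 in DASHed and 5545355 to 6008358 in untreated cells. At these depths 3 counts, the floor for genes with none, correspond to 1.99 to 4.20 CPM in a cell. Intervals are exact (Clopper-Pearson) at 95%. No test was made, because each sample is 1 cell and cell 1 was chosen by these values. The members and lists were chosen with earlier results of these data known. A gene is called uncertain where at least 10% of its 31-base words occur in transcripts of another gene.

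The rule for named genes took the 4 markers and, from each list, up to 3 genes called each way with the largest ratio in the weaker group, or the 2 with the highest mean level if none was called. For histones it took the 2 of each family with the highest mean level. Over all genes it took 12 each way, with at least 50 counts. SLBP, NPAT, NASP, FOXM1, CDKN1A, CCND1, the keratins and further histone genes were added after their values were seen, as was the list of RNAs without a poly(A) tail.

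Same-numbered DASHed and untreated cells deviated together, as given above, and ratios were taken within each group. Alternatives varied the scale, filter, fold, pseudocount, depth and reference cells, with TMM factors from edgeR 4.0.16 (R 4.3.3). Other steps used Python 3.11.15, pandas 2.3.3, numpy 2.4.6 and scipy 1.17.1, and the calling script was checked on simulated data. The ribosomal protein genes called lower are not reported here.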

Additional observations from a re-analysis of the deposited data

Results flagged for a closer look

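In each group of 4 cells, 121 values (98 named genes and 23 lists) were examined for a cell that lay far from the other 3. The measure was the gap to the nearest other cell as a share of the whole range, and a gap above Dixon's 95% critical value for 4 samples was reported. Chance alone gives such a gap in about 1 of 20 groups. Of the 242 groups, 56 had one, and cell 1 was the far cell in 47. Genes named for their high ratio in cell 1 were chosen for it, so these gaps are no separate result.

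Cell 1 was far above the others in the summed histone list, with gaps of 0.95 (DASHed) and 0.96 (untreated). The gap was 1 in both groups for TYSND1, RBPMS2, LRP4, HIST2H2AA4, HIST1H2BM, HIST1H2AI, GGT1 and CCDC17, and 0.99 in both for PEX10. It was 0.99 (DASHed) and 1 (untreated) for HIST1H2BF, 0.99 and 0.98 for WDR24, and 0.98 and 0.99 for HIST1H3J. HIST1H2AM had 0.98 and 0.94, HIST1H2AJ 0.98 in both, HIST2H2BF 0.95 and 0.93, HIST1H1E 0.92 and 0.93, HIST1H1C 0.89 and 0.92, and HIST1H4E 0.85 and 0.84. BRIP1 had 0.93 and 0.87, and ASF1B 0.90 and 0.86. In untreated cells alone the gap was 0.93 for RFC3. In DASHed cells alone it was 0.89 for GINS3, 0.86 for HIST1H4C, 0.85 for TOPBP1 and 0.91 for H2AFY, where cell 1 was the lowest.

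Other cells stood apart in 9 groups. Cell 2 did so for OGFOD3, at 0.92 (DASHed) and 0.94 (untreated), for ATR in DASHed cells, at 0.90, and for the p53 target list in untreated cells, at 0.89. Cell 3 did so for COL1A1, at 0.95 and 1, for the epithelial list, at 0.83 and 0.88, and for the S-phase list in untreated cells, at 0.86. In DASHed cell 3 the epithelial keratins KRT8 and KRT18 stood at 3510 and 1708, against at most 1148 and 733 in the other DASHed cells.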

How the results depend on the processing

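The results recomputed were the 2 counts of genes called and the 8 summed ratios, with 102 alternatives, of which 87 stayed within 1.5 times (counts) or 1 SD of the other cells (ratios). No paired analysis was possible because no result comes from a test, and ratios were already taken within each treatment group. The 37 histone genes called higher were as many under all 4 scalings. Genes called higher, 1595, became 791 with at least 100 counts per group, 2725 with at least 1 count, 874 at 4-fold, and 921 with 20 counts in the other 3 cells alone, an alternative added after the data were seen. Here fewer or more genes could pass, and the cause was otherwise not tested. Leaving out cell 2, 3 or 4 gave 1871 to 2138 genes higher and 1517 to 1919 lower, against 1145, with 1919 reached without cell 2. Cell 1 then had to lie outside fewer cells, which by itself lets more genes pass that condition. The median ratio over histone members was 24.48 (DASHed) and 22.08 (untreated) in place of 12.98 and 12.28, and leaving out a cell gave 11.33 to 15.24 and 11.06 to 14.03. The G2/M ratio of 0.746 in DASHed cells became 0.6745 with all counts and 0.5105 as a median over members. In untreated cells 0.641 became 0.5144 with all counts, 0.575 with TMM, 0.581 with median-of-ratios factors and 0.459 as a median over members. The licensing ratio of 0.676 in DASHed cells became 0.8794 as a median over members and 0.8937 without its top member. Leaving out a cell gave 0.7213 to 0.7754 and 0.6211 to 0.6628 for G2/M, 0.6216 to 0.8003 and 0.6746 to 0.8546 for licensing, and 0.662 to 0.9189 and 0.8638 to 1.063 for the S-phase list, which passed 1 without cell 3 in untreated cells. The median log2 ratio of all genes was −0.55 and −0.38, and −0.68 and −0.61 with all counts, −0.59 and −0.52 with TMM and −0.57 and −0.51 with median-of-ratios factors. Depth limits genes under the floor of 3 counts in a library.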

Other observations

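Single genes of groups outside the cell cycle were called in cell 1, in shares near or below the 16.8% higher and 12% lower of all genes. The groups were thus not set apart, and the summed level of each in cell 1 lay within the range of the other cells. Of 79 ribosomal protein genes 2 were called higher, RPS19 and FAU. Of 16 immediate early and stress genes it was 2, and of 11 p53 targets 2 were called higher and 1 lower. RPS19 stood at 445 in DASHed cell 1 against 151, 73.0 and 229, and at 219 in untreated cell 1 against 89.1, 37.1 and 84.5. Among immediate early and stress genes DUSP1, a phosphatase of MAP kinases, stood at 269.5 against 1.40, 112 and 147, and at 179 against 0, 94.6 and 87.7. Among p53 targets TNFRSF10B, a death receptor, was at 0 in both libraries of cell 1 against 15.9 to 204 and 43.6 to 164 in the other cells.

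Within 500000 bases of the main histone cluster on chromosome 6, 3 of 6 other coding genes with enough counts were called higher in cell 1, beside 16.8% of all genes. They were AL031777.3, HMGN4 and TRIM38, named after their values were seen. AL031777.3 spans HIST1H3D and HIST1H2AD on the same strand, and its counts cannot be told apart from reads of those genes. HMGN4, a nucleosome-binding protein, stood at 64.9 against 0, 5.603 and 10.9 in DASHed cells. Around chr1:149782689-149887916, chr1:228424845-228460470 and HIST4H4, 1 of 7, 1 of 7 and 0 of 3 such genes were called higher. At chr1:228424845-228460470 and HIST4H4, 2 such genes each were called lower. Around chr6:27125897-27147515 and chr6:27807444-27893843 it was 1 of 1 and 1 of 5 called higher, the same gene in both. A high share of neighbours called higher was thus not seen around every block.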
